A study of Homo sapiens with 12 samples.

Results

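Extracellular matrix genes and the genes that remodel the matrix were followed through the loss of mitochondrial DNA (mtDNA) in 2 human tumour lines. The set is a list of 55 genes in 11 role groups, from fibrillar collagens to protease inhibitors. Its genes were chosen by name and role, with earlier results of these data known. Of the 55, 53 were named on the array, by 125 of its 22283 probe sets and among 11963 named genes, and no probe set was named for COL12A1 or LAMA3 here. The study compared ρ° cells (rho0 in the labels), which were depleted of mtDNA, with their ρ+ parents in 143BTK-, an osteosarcoma line without thymidine kinase, and in A549, a lung adenocarcinoma line, to find what the nucleus does when mtDNA is lost. Each of the 4 groups had 3 biological replicates, lettered A to C, with 1 Affymetrix array per replicate and 12 arrays in all. The 143BTK- ρ° and A549 ρ° cells had been grown with 50 ng/ml ethidium bromide for 3 weeks, were pooled without choosing clones, and were tested for mtDNA after the drug was withdrawn. The ρ+ cells of each line carried mtDNA, and all 4 groups were grown in high-glucose medium with 10% serum, 1 mM pyruvate and 50 µg/ml uridine. Exposure to ethidium bromide and absence of mtDNA therefore cannot be told apart in any comparison below, and the results are those of a tumour line in culture.

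The extracellular matrix is a network of secreted proteins. Fibrillar collagens form its cables, type IV collagen and laminins polymerise into the sheet-like basement membrane, and fibrillins, fibulins and proteoglycans organise elastic fibres and the hydrated space between cells. Lysyl oxidases cross-link collagen and elastin, metalloproteases and the plasminogen activator system cut the matrix, and TIMP proteins inhibit the metalloproteases. Osteosarcoma cells come from a matrix-producing lineage, whereas lung carcinoma cells are epithelial and normally rest on a basement membrane.

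The array signals are linear values that had been normalised within each line, so the states were compared within a line and within a probe set. Signals of different probe sets were ranked only for the filter and for the choice of a gene's brightest probe set. That choice used the mean over the 12 arrays of both lines. Signals were summed over probe sets only for the marker lists. Every array had a median signal of 27.6 in 143BTK- and of 31.3 to 31.4 in A549, and the lowest correlation of an array with another of its group was 0.899 to 0.943. Probe sets of the lowest mean signal were left out of the tests, which kept a mean of at least 12.5 in 143BTK- and 18.9 in A549. After this step 45 of the 53 matrix genes were tested in 143BTK-, 37 in A549 and 34 in both, each through its brightest probe set. COL1A2, COL16A1 and HSPG2 were tested only in A549, 11 members, among them SPARC, TNC, MMP1 and MMP2, only in 143BTK-, and 5 in neither line. FBN2, EFEMP1 and LOX in A549 and TNC and NID2 in 143BTK- entered the tests with 1 of their states under the lowest mean kept, so their presence among the tested genes depended on the other state. No probe set was named for a gene of mtDNA, so depletion itself could not be read from these values. Of 11 epithelial markers 6 were tested in A549, and KRT8, KRT18, KRT19 and CDH1 were lower in A549 ρ°. The summed signal of the epithelial list was 13151.5 to 15932.6 on the A549 ρ+ arrays and 5286.5 to 8971.4 on the ρ° arrays, with EPCAM, CLDN4, CLDN7 and ESRP1 under the lowest signal kept in both, and its part in the A549 results was not tested. In 143BTK- the epithelial sums overlapped, at 4216.8 to 5171.7 in ρ+ and 2997.8 to 5044.1 in ρ°. The 12 mesenchymal and bone markers gave overlapping sums in each line, but RUNX2, FAP, PDGFRB and S100A4 were under the lowest signal kept in both states of 143BTK-, so that these 4 did not mark the line as bone-derived here. Leukocyte sums stayed at or under 161.8 and endothelial sums at or under 271.9 on every array.

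In A549, 5 of the 37 tested matrix genes rose in ρ° and 4 fell (limma, adjusted p under 0.05), against 5.14% of all tested genes higher and 5.92% lower. COL18A1, COL6A2, VCAN, PLAU and TIMP1 rose, and COL5A1, LAMB3, FBN2 and EFEMP1 fell. In 143BTK- no matrix gene passed in either direction, as no gene of the array did (0.0% higher and 0.0% lower). At an unadjusted p under 0.05, which makes no allowance for the number of genes, 11 of the 45 were higher in 143BTK- ρ° and 1 was lower, against 3.8% and 4.86% of all genes. When the changes of the lines were averaged over 12 arrays, COL4A2, COL6A2, LAMB1 and LAMB2 rose, and FBN2 and EFEMP1 fell, out of 34 (background 1.76% higher and 1.94% lower). The falls of FBN2 and EFEMP1 came from A549, since their 143BTK- log2 changes were 0.34 and 0.61. COL4A2, COL6A2, LAMB1 and LAMB2 were also the 4 members that read higher on each ρ° array than on any ρ+ array of the same line, in 143BTK- and in A549, which held for 1.44% of all genes, and no member read lower in this way, as another 1.44% of all genes did. The change itself differed between the lines for 5 members, VCAN in favour of A549 (background 1.04%) and COL5A2, LAMB3, FBN2 and EFEMP1 in favour of 143BTK- (background 1.01%). The calls of COL4A2, COL5A1, COL5A2, COL6A2, LAMB1 and TIMP1 lay close to the threshold and were lost with no filter (adjusted p 0.0557 to 0.0856) and with no intensity trend (adjusted p 0.0697 to 0.142), and the difference of VCAN was lost with no trend (adjusted p = 0.058). The median log2 change of the members was 0.18 in 143BTK-, beside -0.002 over all genes, and -0.03 in A549, beside -0.03 over all genes. In 143BTK- 30 of 45 members were above 0 (66.7%, against 49.7% of all genes), and in A549 18 of 37 (48.6%, against 47.9%). Within a state, the members' median log2 signal had an SD over replicate arrays of 0.231 in 143BTK- and 0.246 in A549. Both were larger in size than the median change of the line, but an SD of levels is not the error of that change. With 1 array left out, the median change was 0.126 to 0.327 in 143BTK- and -0.087 to 0.115 in A549. RNA was taken from whole cultures, so a change in the share of cells that make a transcript and a change in the amount per cell cannot be told apart.

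**Figure D1:**
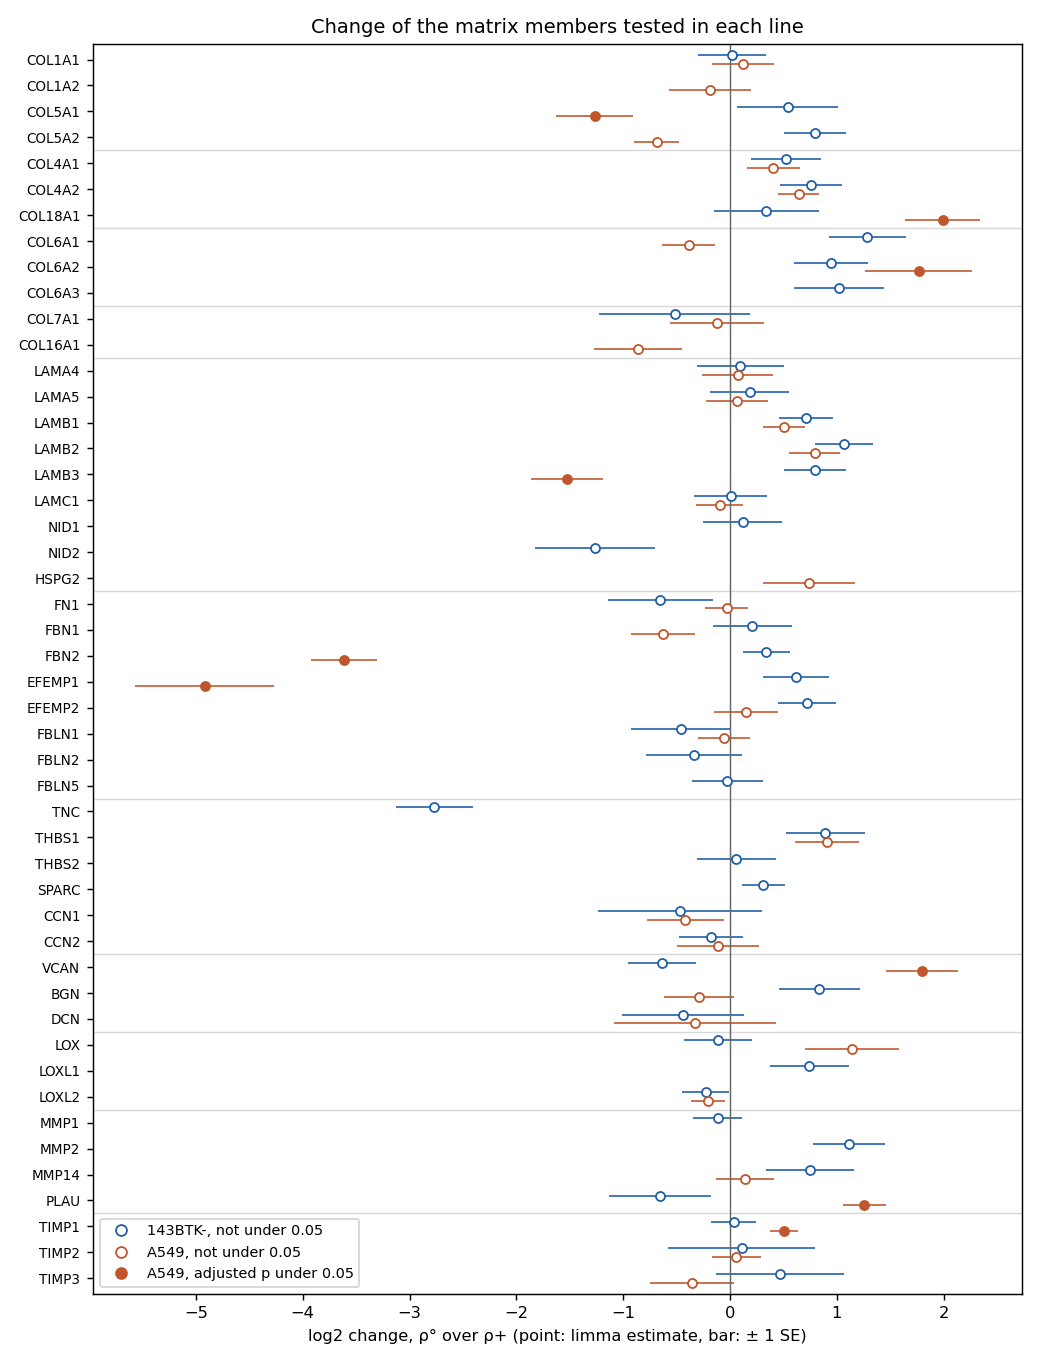
Log2 change of ρ° over ρ+ for each matrix gene tested in a line, in order of role (grey lines part the role groups). Points are limma estimates and bars ± 1 SE from 3 against 3 arrays, blue for 143BTK- and orange for A549, and filled points passed an adjusted p under 0.05. All 9 filled points belong to A549, and FBN2 and EFEMP1 lie farthest to the left.

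Upstream sequence is shown for 4 members, COL4A2 and LAMB2 because they rose in the mean change of the lines, and VCAN and FBN2 because they moved apart between the lines. The sequences are from RefSeq (GRCh38.p14), run 5′ to 3′ on the gene's own strand and hold the 250 bases before the transcription start. Capitals mark GC boxes, the letters GGGCGG or CCGCCC on the strand shown, and CCAAT boxes, CCAAT or ATTGG.
COL4A2: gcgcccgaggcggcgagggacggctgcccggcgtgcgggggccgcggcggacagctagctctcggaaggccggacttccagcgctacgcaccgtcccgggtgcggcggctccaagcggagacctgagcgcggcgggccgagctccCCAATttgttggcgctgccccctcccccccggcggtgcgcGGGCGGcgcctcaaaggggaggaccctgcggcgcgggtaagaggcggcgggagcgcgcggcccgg
LAMB2: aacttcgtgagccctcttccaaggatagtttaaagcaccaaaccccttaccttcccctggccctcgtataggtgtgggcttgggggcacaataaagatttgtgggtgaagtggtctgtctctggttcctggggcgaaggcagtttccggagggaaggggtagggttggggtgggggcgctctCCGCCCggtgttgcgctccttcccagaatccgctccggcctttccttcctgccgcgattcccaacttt
VCAN: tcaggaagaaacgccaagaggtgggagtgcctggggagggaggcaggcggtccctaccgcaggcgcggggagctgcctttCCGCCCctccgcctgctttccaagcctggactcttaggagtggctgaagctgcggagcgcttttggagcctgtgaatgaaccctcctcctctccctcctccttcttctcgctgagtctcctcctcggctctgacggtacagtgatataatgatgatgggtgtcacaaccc
FBN2: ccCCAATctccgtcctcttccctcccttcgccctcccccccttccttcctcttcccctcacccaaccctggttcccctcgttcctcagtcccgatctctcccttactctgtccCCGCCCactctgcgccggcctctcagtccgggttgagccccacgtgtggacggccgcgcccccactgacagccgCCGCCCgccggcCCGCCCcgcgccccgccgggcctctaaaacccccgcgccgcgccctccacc
The COL4A2 window is chr13:110307034-110307283 on the + strand and that of LAMB2 is chr3:49133051-49133300 on the - strand. The VCAN window is chr5:83471494-83471743 on the + strand and that of FBN2 is chr5:128538246-128538495 on the - strand. COL4A2 and COL4A1 are divergent neighbours whose starts lie 127 bases apart, and 126 bases of the COL4A2 window are also the upstream window of COL4A1. The COL4A2 window held 1 GC box and 1 CCAAT box, LAMB2 and VCAN each held 1 GC box, and FBN2 held 3 GC boxes and 1 CCAAT box. Windows were found for 39 members. A GC box was present in 32 of them (82.1%) and in 42.3% of 27305 human windows, and a CCAAT box in 14 (35.9%) beside 33.0%. A TATA box (TATAAA or TTTATA) was present in 4 member windows (10.3%) beside 11.1%, and the AP-1 letters TGACTCA or TGAGTCA in 0 beside 4.16%. These are matches of letters and not sites shown to be bound. GC boxes were found both upstream of members that rose and upstream of a member that fell. The 27305 windows outnumber the 11963 genes named on the array and were not matched to the members in gene type. The shares are therefore not a like comparison, and enrichment was not tested.

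In the mean change of the lines 2 of the 6 tested genes for laminins, nidogens and perlecan rose, LAMB1 and LAMB2, with 1 of the 3 tested basement membrane collagens, COL4A2, and 1 of the 2 tested chains of type VI collagen, COL6A2. LAMB2 encodes the laminin β2 chain. Its signal in 143BTK- was 27.2, 39.0 and 32.4 in ρ+ and 63.7, 76.7 and 64.5 in ρ°. In A549 it was 110.3, 109.9 and 85.8 in ρ+ and 216.9, 184.3 and 135.3 in ρ°. The arrays of the states did not overlap in either line. The change was 2.09-fold in 143BTK- (log2 1.07 ± 0.27 SE, adjusted p = 0.39) and 1.73-fold in A549 (log2 0.79 ± 0.24 SE, adjusted p = 0.0637), and the mean change passed (log2 0.93 ± 0.18 SE, adjusted p = 0.0151). The call was lost when the A549 ρ° A array was left out, at an adjusted p of 0.0548, and was kept without each of the other arrays.

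LAMB1, the laminin β1 chain of the most widespread laminins, moved by less. The 143BTK- signals were 279.8, 199.0 and 238.7 in ρ+ and 369.9, 487.4 and 322.3 in ρ°, and the A549 signals were 175.9, 165.0 and 189.3 in ρ+ and 272.9, 272.7 and 211.0 in ρ°. All ρ° arrays lay above the ρ+ arrays of their line. The mean change was 0.61 ± 0.16 on the log2 scale (adjusted p = 0.0464). This call was kept only without A549 ρ° C or 143BTK- ρ° C, and without any of the other 10 arrays the adjusted p was 0.0529 to 0.125. The second LAMB1 probe set, 201505_at, gave a mean change of 0.18 ± 0.19 (adjusted p = 0.664).

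COL4A2 encodes the α2 chain of type IV collagen, the network-forming collagen of basement membranes. In 143BTK- the signals were 539.0, 249.7 and 390.5 in ρ+ and 610.3, 753.7 and 552.4 in ρ°. In A549 they were 495.3, 406.7 and 396.7 in ρ+ and 665.2, 807.5 and 564.4 in ρ°. The states were apart in both lines, in 143BTK- by a narrow margin. The change was 1.69-fold in 143BTK- and 1.56-fold in A549, and their mean was 0.70 ± 0.18 on the log2 scale (adjusted p = 0.0479). The call was kept only without A549 ρ° C or 143BTK- ρ+ A, and the adjusted p was 0.0519 to 0.125 without any of the other 10. COL4A2 lies on chromosome 13, where the median change was 0.29 in 143BTK- and 0.08 in A549, and centred on the chromosome its mean change was 0.54 (adjusted p = 0.127). A second COL4A2 probe set, 211966_at, also passed in the mean change (log2 1.40 ± 0.32, adjusted p = 0.0309) and in A549 alone, with signals of 101.6, 68.7 and 28.1 in ρ+ and 386.6, 239.2 and 205.1 in ρ° (4.59-fold, adjusted p = 0.0118).

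COL4A1, the partner chain that shares the upstream region with COL4A2, did not pass through its brightest probe set. The mean change was 0.46 ± 0.22 on the log2 scale (adjusted p = 0.249), with changes of 0.52 in 143BTK- and 0.40 in A549. Its other probe set, 211981_at, passed in A549 with signals of 81.2, 54.3 and 68.4 in ρ+ and 193.6, 145.3 and 161.2 in ρ° (2.47-fold, adjusted p = 0.00919), while in 143BTK- it had a log2 change of -0.01 ± 0.33. The difference between the lines for that probe set was 1.31 ± 0.41 (adjusted p = 0.118).

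COL18A1, a basement membrane collagen whose C-terminal fragment is endostatin, rose in A549. Its signals were 599.5, 410.9 and 186.3 in A549 ρ+ and 1609.8, 1438.6 and 1244.9 in ρ°. The ρ° arrays were close together and all above the more scattered ρ+ arrays. The change was 3.98-fold (log2 1.99 ± 0.35, adjusted p = 0.0073), the second probe set 209082_s_at gave 2.92-fold (adjusted p = 0.00062), and the call was kept without any single array. In 143BTK- the signals overlapped, at 15.8 to 46.9 in ρ+ and 26.5 to 61.8 in ρ°, and the A549 change did not exceed the 143BTK- change by a margin that passed (log2 1.65 ± 0.64, adjusted p = 0.198).

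LAMB3, the β3 chain of laminin-332, the laminin of epithelial anchorage, fell in A549, while its 143BTK- estimate was above 0 with no call. In A549 the signals were 159.4, 134.5 and 66.0 in ρ+ and 36.0, 44.4 and 37.1 in ρ°, a fall of 2.88-fold with no overlap (log2 -1.53 ± 0.34, adjusted p = 0.0195). In 143BTK- they were 263.7, 294.0 and 454.6 in ρ+ and 421.6, 760.6 and 572.4 in ρ°, with overlap and a log2 change of 0.79 ± 0.29 (adjusted p = 0.56). The difference between the lines was -2.32 ± 0.47 (adjusted p = 0.0252). The A549 call was lost without A549 ρ° A, ρ+ A or ρ+ B (adjusted p 0.0618 to 0.0835). The difference was lost without these and without 143BTK- ρ+ A or ρ+ B (adjusted p 0.0548 to 0.08). The epithelial marker genes KRT8, KRT18, KRT19 and CDH1 fell in A549 ρ° as well.

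The other laminins and nidogens showed no call. In 143BTK-, LAMA4, LAMA5, LAMC1, NID1 and NID2 had log2 changes of -1.26 to 0.18 (adjusted p 0.601 to 0.999), and in A549, LAMA4, LAMA5, LAMC1 and the perlecan gene HSPG2 had changes of -0.10 to 0.74 (adjusted p 0.302 to 0.92). NID2, a nidogen that links laminin to type IV collagen, was too dim in A549 to enter the tests. Its A549 signals were 36.9, 23.2 and 42.4 in ρ+ and 7.2, 6.2 and 6.3 in ρ°. The states did not overlap, and the ρ° mean lay under the lowest signal kept, so that the ρ+ mean was at least 1.75-fold higher. With no filter NID2 passed in A549 (adjusted p = 0.0257). In 143BTK- its signals were 20.8, 14.1 and 28.8 in ρ+ and 4.9, 7.1 and 17.6 in ρ°, with overlap.

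**Figure D2:**
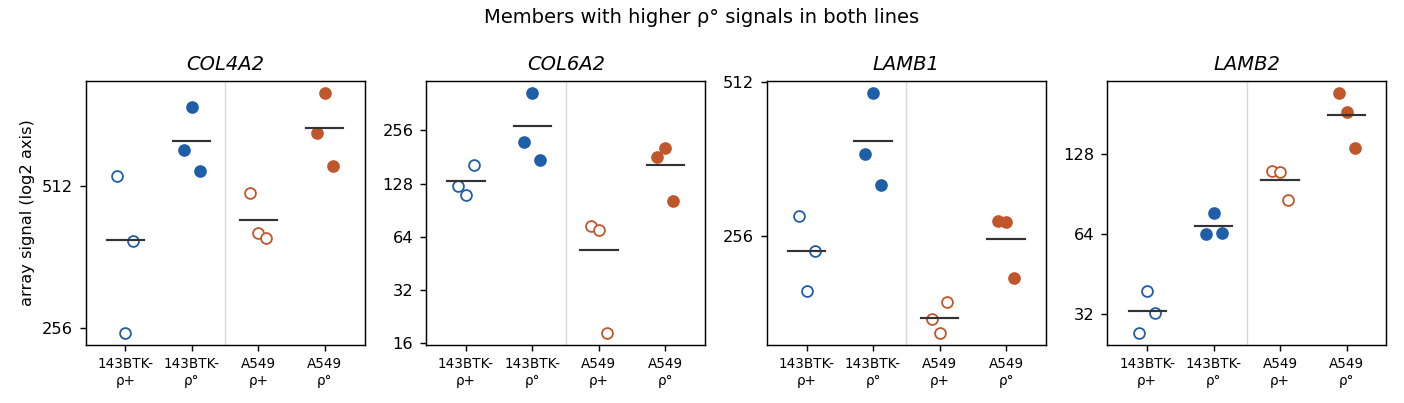
Array signals (log2 axis) of the 4 members whose ρ° arrays lay above the ρ+ arrays in both lines. Open points are ρ+ and filled points ρ° arrays, 3 per group, and the bar is the group mean. LAMB2 separates most clearly in 143BTK-, where the ρ+ arrays end at 39.0 and the ρ° arrays start at 63.7.

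Type VI collagen is a heterotrimer that forms beaded filaments around cells, built from the COL6A1, COL6A2 and COL6A3 chains. COL6A2 was the chain that passed. Its 143BTK- signals were 123.5, 109.8 and 163.1 in ρ+ and 220.0, 415.1 and 172.9 in ρ°, and its A549 signals were 73.7, 70.4 and 18.4 in ρ+ and 181.3, 203.7 and 101.9 in ρ°. The states were apart in both lines. COL6A2 rose 3.4-fold in A549 (log2 1.77 ± 0.50, adjusted p = 0.0483) and by 1.36 ± 0.34 in the mean change (adjusted p = 0.042). The A549 call was lost without A549 ρ° A, ρ° B or ρ+ B (adjusted p 0.0671 to 0.164). The mean change was lost without these or without the A or B array of either 143BTK- state (adjusted p 0.0571 to 0.112). Without A549 ρ+ C, which read 18.4, the A549 log2 change was 1.11 and passed (adjusted p = 0.0361). Over the mean of its probe sets COL6A2 did not pass in A549 (log2 1.02, adjusted p = 0.11) or in the mean change (log2 0.88, adjusted p = 0.103). The second COL6A2 probe set, 213290_at, had a mean change of 0.39 ± 0.29 (adjusted p = 0.474).

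In 143BTK- all 3 chains of type VI collagen had an unadjusted p under 0.05 and none passed after adjustment. COL6A1 signals were 146.8, 60.4 and 153.2 in ρ+ and 261.0, 261.8 and 288.0 in ρ° (2.44-fold, adjusted p = 0.445). COL6A3 signals were 390.2, 113.6 and 264.4 in ρ+ and 471.1, 585.4 and 353.5 in ρ° (2.03-fold, adjusted p = 0.58). The COL6A1 states were apart and those of COL6A3 overlapped. In A549, COL6A1 did not follow COL6A2, with 240.3 to 321.9 in ρ+ and 166.5 to 302.4 in ρ° and a log2 change of -0.39 ± 0.25 (adjusted p = 0.349), and COL6A3 was under the lowest signal kept in both states. COL6A1, COL6A2 and COL18A1 lie on chromosome 21, where the median log2 change of 121 A549 probe sets was 0.20. With changes centred on the chromosome median COL6A2 no longer passed in A549 (log2 1.57, adjusted p = 0.08).

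Of the fibrillar collagens, both chains of type V gave a call. COL5A2 encodes the α2 chain of type V collagen, which regulates the diameter of collagen fibrils. In 143BTK- its signals were 130.3, 191.5 and 212.6 in ρ+ and 305.4, 235.6 and 388.6 in ρ°. In A549 they were 326.3, 375.4 and 269.8 in ρ+ and 223.1, 171.7 and 207.8 in ρ°. On this probe set the ρ° arrays were all higher in 143BTK- and all lower in A549. Neither line passed alone (143BTK- log2 0.80 ± 0.29, adjusted p = 0.554, and A549 log2 -0.69 ± 0.21, adjusted p = 0.0616), and the difference between the lines did (log2 -1.48 ± 0.36, adjusted p = 0.0481). That call was lost when any of 9 arrays was left out, and was kept without A549 ρ+ C, 143BTK- ρ° B or 143BTK- ρ+ C. Where it was lost, the adjusted p was 0.0695 to 0.132. It was also lost with changes centred on the chromosome median (log2 -1.35, adjusted p = 0.0805). On a second COL5A2 probe set, 221730_at, the 143BTK- states were apart with ρ° higher. Its A549 states overlapped, at 271.9, 254.1 and 181.1 in ρ+ and 185.6, 136.8 and 150.3 in ρ°. The difference between the lines had the same sign there and did not pass (log2 -1.75 ± 0.51, adjusted p = 0.0895).

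COL5A1, the α1 chain of the same collagen, fell in A549, from 143.6, 149.1 and 161.5 in ρ+ to 60.6, 111.7 and 36.8 in ρ°. The ρ° arrays were scattered and all lower, by 2.4-fold on average (log2 -1.27 ± 0.36, adjusted p = 0.0473). A second probe set, 203325_s_at, fell 3.0-fold (adjusted p = 0.0133). On the third, 212489_at, the states overlapped, at 64.8, 23.2 and 55.3 in ρ+ and 40.4, 36.2 and 27.6 in ρ° (log2 -0.35 ± 0.41, adjusted p = 0.629), so the probe sets of COL5A1 differed in their call. The first call was kept only without A549 ρ° B, and without any of the other 5 A549 arrays the adjusted p was 0.0646 to 0.146. COL5A1 lies on chromosome 9, where the median change of 439 A549 probe sets was -0.31, and it did not pass when centred on that median (log2 -0.95, adjusted p = 0.125). In 143BTK- COL5A1 signals overlapped, at 14.7 to 37.0 in ρ+ and 22.5 to 57.8 in ρ°.

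The remaining collagens gave no call. COL1A1, the main chain of type I collagen, had a mean log2 change of 0.07 ± 0.22 on 217430_x_at (adjusted p = 0.897). This probe set read 68.6 to 116.2 in 143BTK- ρ+ and 62.2 to 102.0 in ρ°. A dimmer COL1A1 probe set, 202312_s_at, was 12.5, 4.4 and 7.6 in 143BTK- ρ+, with a mean under the lowest signal kept, and 31.5, 21.9 and 28.1 in ρ°, at least 2.15-fold higher with no call (adjusted p = 0.39). The COL1A1 probe sets 202310_s_at and 202311_s_at were left out by the filter in both lines. On 202310_s_at the A549 states were apart, at 25.0, 23.7 and 25.8 in ρ+ and 5.4, 13.8 and 16.3 in ρ°. COL1A2 was tested in A549 (log2 -0.19, adjusted p = 0.794), as was COL16A1 (log2 -0.86, adjusted p = 0.208). COL7A1, the anchoring fibril collagen, had signals in 143BTK- of 37.8, 21.4 and 14.3 in ρ+ and 20.0, 5.1 and 38.5 in ρ°, and in A549 of 250.7, 125.9 and 61.1 in ρ+ and 158.7, 103.8 and 90.4 in ρ°. On this probe set the states overlapped in both lines (mean log2 change -0.32 ± 0.46, adjusted p = 0.743). On another, 204136_at, the A549 states were apart, at 175.5, 133.5 and 118.9 in ρ+ and 101.9, 113.6 and 54.0 in ρ°, with no call (1.65-fold lower, adjusted p = 0.163). COL3A1, COL8A1, COL11A1 and COL15A1, with the proteoglycan gene LUM, were under the filter in both lines.

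Of the 6 genes for fibronectin, fibrillins and fibulins tested in A549, FBN2 and EFEMP1 fell and 4 did not pass. FBN2 encodes fibrillin-2, a microfibril protein known mainly from development. Its A549 signals were 151.8, 145.2 and 182.0 in ρ+ and 12.4, 9.6 and 18.4 in ρ°. Every ρ° array was under the lowest signal kept, so that the ρ+ mean was at least 8.41-fold higher (log2 -3.61 ± 0.31 as measured, adjusted p = 0.000428). In 143BTK- the signals were 274.6, 233.1 and 197.0 in ρ+ and 282.3, 305.9 and 295.7 in ρ°, which is 1.27-fold higher with no overlap and an adjusted p of 0.726. The difference between the lines was -3.95 ± 0.37 (adjusted p = 0.000159). The A549 call, the mean change (log2 -1.64, adjusted p = 0.000692) and the difference were kept without any single array. The mean change averages estimates of opposite sign. FBN1, which encodes fibrillin-1, had a log2 change of -0.63 in A549 (adjusted p = 0.211).

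EFEMP1 encodes fibulin-3, a secreted glycoprotein of elastic tissues and basement membranes. In A549 its signals were 134.4, 129.5 and 206.7 in ρ+ and 14.2, 1.7 and 5.4 in ρ°, with all ρ° arrays under the lowest signal kept. The ρ+ mean was at least 8.11-fold higher (log2 -4.92 ± 0.65 as measured, adjusted p = 0.00209). In 143BTK- the signals were 421.0, 621.6 and 612.7 in ρ+ and 1107.6, 1000.4 and 518.6 in ρ°, with overlap and a log2 change of 0.61 ± 0.31 (adjusted p = 0.652). The difference between the lines was -5.53 ± 0.78 (adjusted p = 0.00347). All EFEMP1 calls were kept without any single array, and the mean change (log2 -2.15, adjusted p = 0.0129) averages estimates of opposite sign. It was lost with 64 added before log2 (log2 -0.53, adjusted p = 0.0913).

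Fibronectin, the adhesive glycoprotein encoded by FN1, stood at 2340.3, 2389.8 and 2482.9 in A549 ρ+ and at 2956.2, 2623.9 and 1674.8 in ρ°, with overlap (log2 -0.03 ± 0.20, adjusted p = 0.941). In 143BTK- it was 165.5 to 686.9 in ρ+ and 156.6 to 286.7 in ρ° (log2 -0.65 ± 0.49, adjusted p = 0.762). EFEMP2, which encodes fibulin-4, a protein needed for elastic fibre assembly, was 74.1, 58.9 and 51.3 in 143BTK- ρ+ and 87.1, 119.1 and 97.0 in ρ° (1.65-fold, adjusted p = 0.56). Its states were apart in 143BTK-, while in A549 they overlapped at 35.1 to 55.5 and 38.6 to 51.0. FBLN1 did not pass through its brightest probe set in either line. Another FBLN1 probe set, 202995_s_at, rose 2.13-fold in A549, from 107.6, 75.0 and 72.9 to 211.4, 132.7 and 202.9 (adjusted p = 0.0274). Of the 4 FBLN1 probe sets tested in A549, the log2 changes ran from -1.22 to 1.09, so the probe sets of this gene disagreed. FBLN2 and FBLN5 were tested only in 143BTK- and did not pass.

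**Figure D3:**
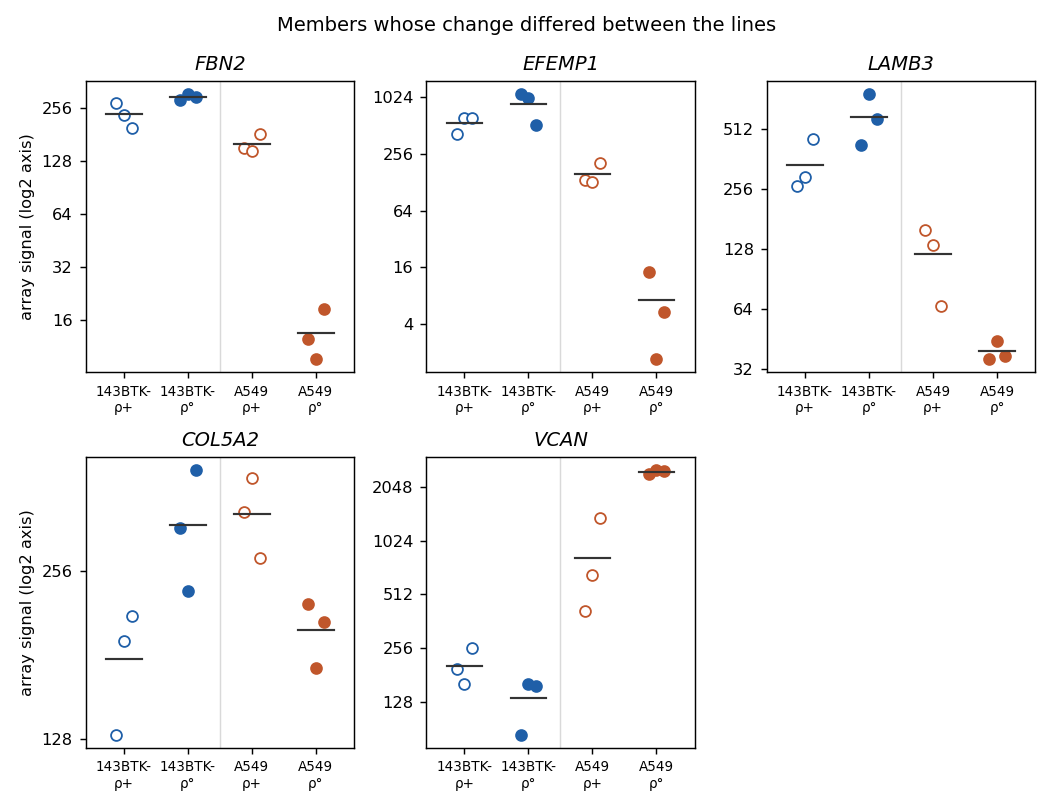
Array signals (log2 axes that differ between panels) of the 5 members whose change differed between the lines. Open points are ρ+ and filled points ρ° arrays, 3 per group, and the bar is the group mean. FBN2 and EFEMP1 drop in A549 to 18.4 or less on every ρ° array and stay at 197.0 or more in 143BTK-, and VCAN is at 2425.8 or more on every A549 ρ° array.

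Matricellular proteins signal from the matrix rather than build it, and none of the 6 passed. THBS1, the gene of the angiogenesis inhibitor thrombospondin-1, came closest in the mean change. Its 143BTK- signals were 164.2, 78.6 and 73.3 in ρ+ and 248.0, 133.9 and 181.5 in ρ°, and its A549 signals were 47.7, 26.2 and 31.0 in ρ+ and 57.6, 69.6 and 63.4 in ρ°. The A549 states were apart and those of 143BTK- overlapped. The changes were 1.85-fold and 1.87-fold, and their mean was 0.90 ± 0.24 on the log2 scale (adjusted p = 0.0575).

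TNC, the gene of tenascin-C, a glycoprotein of remodelling tissue, was the member with an unadjusted p under 0.05 that was lower in 143BTK- ρ°. Its signals were 65.9, 82.0 and 76.5 in ρ+ and 7.7, 10.4 and 16.3 in ρ°. The states did not overlap, the ρ° mean was under the lowest signal kept, and the ρ+ mean was at least 5.97-fold higher (log2 -2.77 ± 0.36 as measured, adjusted p = 0.116). In A549 TNC was under the lowest signal kept in both states. SPARC, which encodes osteonectin, a collagen-binding protein of bone, was bright in 143BTK-, at 491.0 to 690.6 in ρ+ and 685.2 to 805.2 in ρ° (log2 0.31 ± 0.20, adjusted p = 0.722). In A549 it was too dim to be tested, at 24.2, 29.9 and 34.5 in ρ+ and 1.5, 6.5 and 0.9 in ρ°. These states did not overlap, the ρ+ mean was at least 1.55-fold higher, and with no filter SPARC passed in A549 (adjusted p = 0.024). CCN1 and CCN2, growth-factor-responsive adhesion ligands, varied widely between replicates. CCN1 ran from 615.5 to 3797.2 in 143BTK- ρ+ and from 377.2 to 2822.0 in ρ°, and neither gene passed in a line or in the mean change. THBS2 was tested only in 143BTK- and did not pass.

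VCAN encodes versican, a large chondroitin sulphate proteoglycan of provisional matrix. In A549 its signals were 411.2, 654.0 and 1378.9 in ρ+ and 2425.8, 2549.0 and 2505.5 in ρ°. The ρ° arrays were nearly equal and lay above the widely spread ρ+ arrays, a rise of 3.47-fold (log2 1.80 ± 0.34, adjusted p = 0.011). In 143BTK- the signals were 195.4, 160.1 and 254.1 in ρ+ and 83.6, 161.1 and 156.6 in ρ°, with overlap and a log2 change of -0.64 ± 0.32 (adjusted p = 0.655). The difference between the lines was 2.43 ± 0.51 (adjusted p = 0.0293). All 5 tested VCAN probe sets passed in A549, with log2 changes of 1.80 to 3.34. On 215646_s_at the A549 signals were 55.6, 42.4 and 174.8 in ρ+ and 1200.9, 513.8 and 691.7 in ρ° (10.1-fold, adjusted p = 0.00324). The A549 call of the brightest probe set was lost without A549 ρ° A (adjusted p = 0.0533). The difference was lost without any A549 ρ° array, A549 ρ+ A or B, or 143BTK- ρ° A, ρ+ A or ρ+ C (adjusted p 0.052 to 0.085).

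The small leucine-rich proteoglycans BGN and DCN did not pass. BGN was 59.8, 54.7 and 54.7 in 143BTK- ρ+ and 97.9, 175.0 and 59.1 in ρ° (log2 0.83 ± 0.38, adjusted p = 0.61). On this probe set all 3 ρ+ arrays of BGN were near each other and the ρ° B array stood apart at 175.0. Another, 213905_x_at, read 47.8, 38.8 and 34.6 in 143BTK- ρ+ and 145.4, 164.9 and 43.7 in ρ°. Its log2 change was 1.34 ± 0.48 (adjusted p = 0.554), and that of 201262_s_at was 0.35 ± 0.41 (adjusted p = 0.851).

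Of the lysyl oxidases, which cross-link collagen and elastin, none passed. LOX in A549 was 12.3, 18.1 and 17.0 in ρ+, under the lowest signal kept, and 49.9, 38.6 and 21.1 in ρ°. The states were apart and the ρ° mean was at least 1.82-fold higher (log2 1.14 ± 0.44 as measured, adjusted p = 0.125). In 143BTK- LOX was 160.6, 292.8 and 190.2 in ρ+ and 198.1, 259.1 and 137.3 in ρ°, with overlap (log2 -0.12 ± 0.32, adjusted p = 0.949). LOXL1 was tested in 143BTK- (log2 0.74, adjusted p = 0.653) and LOXL2 in both lines (mean log2 change -0.22, adjusted p = 0.359).

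Among the proteases, PLAU, the gene of urokinase, which activates plasminogen, rose in A549. Its signals were 328.1, 308.5 and 274.4 in ρ+ and 753.2, 884.7 and 567.7 in ρ°. The states were far apart, by 2.39-fold (log2 1.26 ± 0.20, adjusted p = 0.00509), a second probe set, 211668_s_at, gave 3.9-fold (adjusted p = 0.0178), and the call was kept without any single array. In 143BTK- the signals overlapped, at 522.1, 1934.0 and 840.3 in ρ+ and 353.5, 894.9 and 682.8 in ρ° (log2 -0.66 ± 0.48, adjusted p = 0.754). The difference between the lines was 1.91 ± 0.57 (adjusted p = 0.0946) and did not pass.

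The metalloproteases gave no call. MMP2, a gelatinase, was 91.1, 41.1 and 62.2 in 143BTK- ρ+ and 167.9, 125.7 and 111.7 in ρ°. These states did not overlap (2.16-fold, adjusted p = 0.489). MMP14, the membrane-bound activator of MMP2, had a mean log2 change of 0.44 ± 0.26 (adjusted p = 0.359). MMP1, interstitial collagenase, was bright in 143BTK-, at 3300.6 to 5945.5 in ρ+ and 3253.1 to 5068.4 in ρ° (log2 -0.12 ± 0.23, adjusted p = 0.923), and was under the lowest signal kept in A549.

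TIMP1, an inhibitor of most metalloproteases, rose by a small and uniform step in A549. Its signals were 1579.2, 1588.7 and 1609.8 in ρ+ and 2340.3, 2234.9 and 2194.9 in ρ°, with little spread in either state and no overlap (1.42-fold, log2 0.50 ± 0.13, adjusted p = 0.0322). This call was kept only without A549 ρ+ C, and without any of the other 5 A549 arrays the adjusted p was 0.0525 to 0.135. It was also lost when centred on the median of its chromosome (log2 0.40, adjusted p = 0.08). In 143BTK- TIMP1 was 487.4 to 521.0 in ρ+ and 427.9 to 613.7 in ρ° (log2 0.03 ± 0.21, adjusted p = 0.983). TIMP2 and TIMP3 had mean log2 changes of 0.08 and 0.06 (adjusted p 0.933 and 0.951). The TIMP3 mean averages 0.47 in 143BTK- and -0.36 in A549. In 143BTK- the 4 tested TIMP3 probe sets had log2 changes of 0.47 to 1.14, with no call (adjusted p 0.585 to 0.87).

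**Figure D4:**
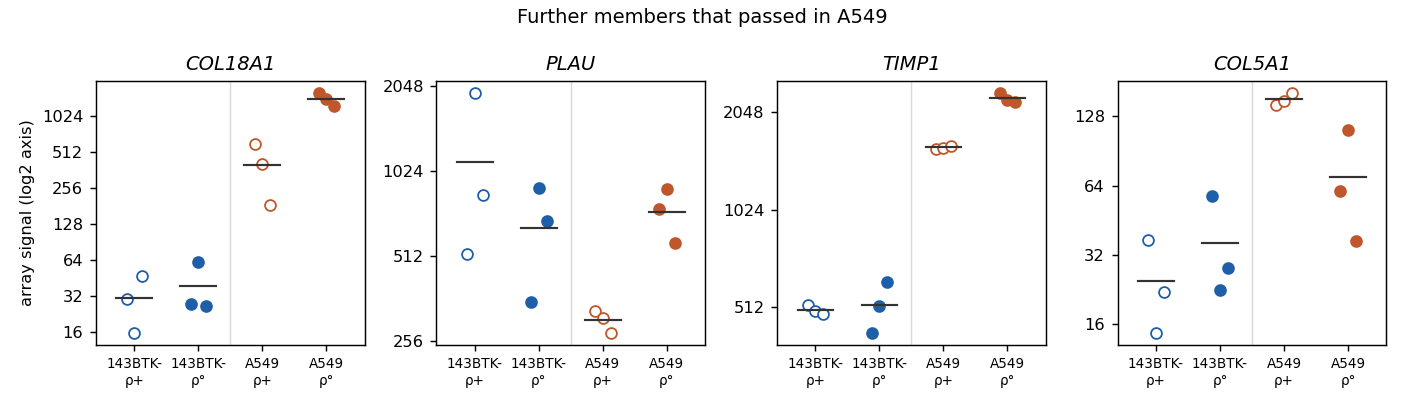
Array signals (log2 axes that differ between panels) of 4 further members that passed in A549. Open points are ρ+ and filled points ρ° arrays, 3 per group, and the bar is the group mean. COL18A1, PLAU and TIMP1 lie higher and COL5A1 lower on all A549 ρ° arrays, while the 143BTK- states overlap in each panel.

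**Figure D5:**
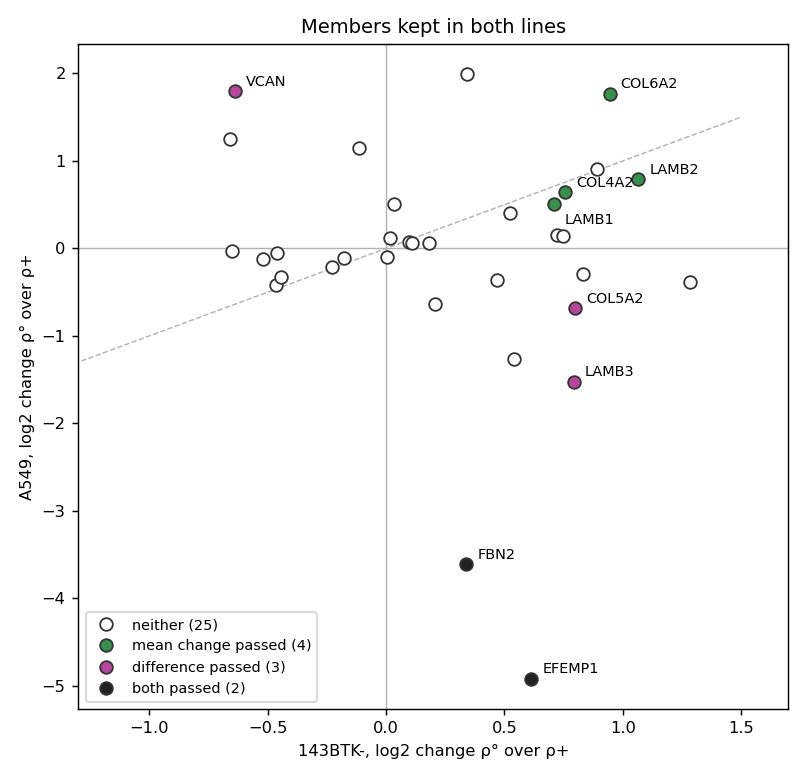
Log2 change of ρ° over ρ+ in 143BTK- (horizontal) and A549 (vertical) for the 34 members tested in both lines, each a point. The dashed line marks equal change, and colours show which of the mean change and the difference between the lines passed an adjusted p under 0.05. COL4A2, COL6A2, LAMB1 and LAMB2 lie above 0 in both lines, and EFEMP1 and FBN2 lie far below the dashed line.

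The wider matrix programme was read from 3 lists of genes that are not members. Of 24 genes for collagen and elastin synthesis enzymes and chaperones, 17 were tested in A549, 1 rose and 0 fell, against 5.14% and 5.92% of all tested genes. The median log2 change in A549 was 0.34 in this list, -0.12 in the list of other structural proteins and 0.05 in that of other proteases and inhibitors, beside -0.03 over all genes. The gene that rose was PXDN, peroxidasin, which cross-links type IV collagen. Its A549 signals were 105.5, 84.4 and 99.9 in ρ+ and 252.7, 293.5 and 204.8 in ρ° (log2 1.37 ± 0.22, adjusted p = 0.0051), and in 143BTK- they were 250.7, 234.7 and 207.2 in ρ+ and 320.8, 242.9 and 246.8 in ρ°. The A549 states were far apart, those of 143BTK- overlapped, and PXDN also rose in the mean change (log2 0.79 ± 0.15, adjusted p = 0.0148). Of 77 other structural matrix proteins, 33 were tested in A549, and 1 rose, AGRN, a basement membrane proteoglycan, from 685.6, 425.6 and 468.4 to 1226.4, 930.9 and 885.4 (log2 0.96 ± 0.22, adjusted p = 0.0216). Of 51 other matrix proteases and inhibitors, 29 were tested in A549. ADAM12, the gene of a membrane-bound metalloprotease, rose from 12.3, 15.3 and 13.8 in ρ+, under the lowest signal kept, to over 32 on each ρ° array, so that the ρ° mean was at least 2.4-fold higher (log2 1.72 ± 0.38 as measured, adjusted p = 0.0202). It entered the tests through its ρ° state. MMP24, another metalloprotease gene, fell from 48.9, 72.7 and 98.6 in ρ+ to 5.6, 43.5 and 7.8 in ρ° (adjusted p = 0.0405). Its ρ° A and C arrays were under the lowest mean kept, so its log2 change of -2.51 ± 0.68 is not a measured size. In 143BTK- 0 genes of the 3 lists passed (limma, 19, 37 and 28 tested), with 2, 3 and 1 higher and 1, 2 and 2 lower at an unadjusted p under 0.05, against 3.8% and 4.86% of all genes.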

How the data were processed

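Labelled cRNA was made from 12 µg of total RNA per sample and hybridised to Affymetrix arrays. The deposited values are intensities on a linear scale: the authors made a signal per probe set with MAS5 and then quantile-normalised each line's 6 arrays separately, which makes the arrays of a line alike and leaves the lines on different scales. Detection calls and the data set on which the study fitted its error model were not used here. Instead, the brightest 63% of probe sets by mean log2 were kept in 143BTK- (14038) and 59% in A549 (13147), 12184 in both.

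Changes were tested on log2 signals with limma 3.58.1 in R 4.3.3 (lmFit, eBayes with an intensity trend, two-sided), per line and in a fit of 12 arrays with 4 groups for the mean change and for the A549 change minus the 143BTK- change. P-values were Benjamini-Hochberg adjusted over all kept probe sets, with a threshold of 0.05. The per-line fits left 4 residual degrees of freedom, so the number of arrays limits the precision. A gene was represented by its kept probe set with the highest mean over 12 arrays, and counts of all genes use the same rule. Where a group mean lay under the lowest mean kept, the fold is a lower bound against that level. Gene names came from the platform's annotation, with symbols updated by Entrez Gene ID through RefSeq (19059 of 19071 with 1 gene matched, 1043 probe sets had several genes and 2169 none).

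Members with values for every array were those that passed in a line, in the mean change or in the difference, those with states apart in both lines in 1 direction, and otherwise the member of a role with the smallest p of the mean change. Further members, named for an unadjusted p or for a second probe set, were chosen after their values were seen. The members and lists were chosen with earlier results of these data known. Alternatives were an offset of 16 or 64 before log2, keeping all probe sets, keeping those with a mean signal of 100 or more, quantile normalisation over 12 arrays, no intensity trend, a replicate block, other probe sets of a gene, centring on chromosome medians, and each array left out. The fits were also run on simulated arrays with independent noise and known changes, which checks the estimates and not the calls made here.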

Additional observations from a re-analysis of the deposited data

Results flagged for a closer look

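In 5 members the A549 change minus the 143BTK- change passed an adjusted p under 0.05 in the limma fit of 12 arrays, each with 3 arrays per group. On the log2 scale this difference was -3.952 for FBN2, -5.531 for EFEMP1, -2.319 for LAMB3, -1.484 for COL5A2 and 2.433 for VCAN. The A549 ρ° state of FBN2 and EFEMP1 was under the lowest signal kept, so their differences are not measured sizes. With 64 added before log2 they were -1.80 and -2.19, and that of EFEMP1 ran from -6.27 to -4.74 with 1 array left out. In FBN2, LAMB3 and COL5A2 the A549 estimate was below 0 and the 143BTK- estimate above 0, as in EFEMP1, and in VCAN the signs were turned. The FBN2 and EFEMP1 differences were kept under each alternative run for them, whereas those of LAMB3, COL5A2 and VCAN were lost when some single arrays were left out. Groups of 3 arrays are too small for a search for outlying arrays.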

How the results depend on the processing

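No member result changed direction under any alternative run. Of 377 recomputed values of called members, 280 kept their call and 97 did not pass. The 280 include 20 with the probe set of smallest p, a choice under which a called member could not lose its call. FBN2 and EFEMP1 in A549 and in the difference, COL18A1 and PLAU kept their calls under each alternative in which they were tested. The 5 members higher in A549 became 3 with no filter, 3 with no intensity trend and 8 with the probe set of smallest p, and 2 to 6 with an array left out. The 4 lower became 2 with a mean signal of at least 100, and 2 to 6 with an array left out. In the mean change the 4 higher members became 1 with no filter, 1 with no intensity trend and 2 when centred on chromosome medians, and 0 to 4 with an array left out. The 2 lower became 1 with 64 added, 4 with no filter (SPARC and NID2 passed) and 0 with a mean signal of at least 100, which FBN2 and EFEMP1 do not reach in A549. The 5 members that differed between the lines became 2 with a mean of at least 100 and 3 with no intensity trend, and 2 to 5 with an array left out. The 4 members apart in both lines became 2 with the mean over probe sets of a gene. The causes were not tested. The letters A to C were not used as pairs in the main tests. Arrays of the same letter had deviations that correlated at 0.357, -0.105 and -0.014 in 143BTK- and at 0.0521 to 0.104 in A549. These values do not settle whether the replicates were paired. With the letter as a replicate block, 0 members passed in 143BTK-, 5 were higher and 4 lower in A549, 3 higher and 2 lower in the mean change, and 5 differed between the lines. These were partly other members: TIMP1 in A549 (adjusted p = 0.0517), COL4A2 and LAMB1 in the mean change (0.0757 and 0.0834) and COL5A2 in the difference (0.0631) were lost, while LAMB2 in A549 (0.0471), THBS1 in the mean change (0.0462) and PLAU in the difference (0.0179) passed. Members under the lowest signal kept have bounds only, and 3 arrays per group limit what each line can show. Why no gene passed in 143BTK- was not tested.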
